A study of Mus musculus with 4 samples.

Results

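The ribosomal protein pseudogenes of the mouse are copies of the genes for the proteins of the ribosome. They were taken as all annotated genes whose symbol starts with Rpl or Rps and ends in -ps with or without a number, and 300 of the 55536 annotated genes met this rule. The parent of each was the gene named before -ps, which gave 62 parent names, of which 61 stood in the annotation. They were followed in 4 libraries of C57BL/6J macrophages, phagocytes grown in culture from bone marrow, made from total RNA of the cytosol after removal of ribosomal RNA. The cells had received lipid A, the part of bacterial lipopolysaccharide sensed by Toll-like receptor 4, at 100 ng/ml for 12 h, had then been kept without it for 12 h, and had received 100 ng/ml again for 15 min. All 4 libraries, labelled biological replicates 1 to 4, belong to this 1 group, so no value here is a response to lipid A. The labels name 1 donor record for all 4 and give neither sex nor age, and separate cultures or animals are not stated, so p-values measure only the spread between these libraries, which may be technical.

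Ribosomal proteins are among the most highly expressed proteins of a growing cell, and their mRNAs are short, spliced and abundant. Such mRNAs are prone to being copied back into DNA and inserted elsewhere in the genome, which leaves intronless copies called processed pseudogenes, often with a run of A at the end that comes from the poly(A) tail. A young copy can be identical to the mRNA of its parent over its whole length. A sequencing read from such a stretch fits the parent and the copy equally well, and a quantification program has to divide such reads between them by a model.

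The same reads had been quantified by the submitters in 2 ways. The second quantification was made directly from the reads and gives an estimated count and TPM per transcript, TPM being an abundance that takes account of transcript length and has the same total in each library. The first quantification was made from an alignment to the transcriptome and gives an expected count, a TPM, and a posterior mean and SD of the count per gene. The comparison made here is between these quantifications within each library, and between the pseudogenes and their parents. Per library, the estimated counts totalled 36212584 to 62013348 and the expected counts 30660511 to 48223718. A count of 0 still allows up to 3 counts, which is 0.0484 to 0.0828 CPM (counts scaled to a fixed total) in the second quantification and 0.0622 to 0.0978 CPM in the first. These limits cover counting error only. In the first quantification all 10 macrophage markers examined lay above 1 TPM (26.1 to 3430 TPM). Of the markers of other cell types, Cd4 (15.0 ± 4.40 TPM), S100a8 (4.54 ± 1.27 TPM) and S100a9 (6.25 ± 1.91 TPM; SD, n = 4 each) did so too, while the T cell receptor chains Cd3e and Cd3g stood at 0.0625 and 0.0225 TPM and the neutrophil gene Ly6g at 0.005 TPM. The part of such cells in the values below was not tested.

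The pseudogenes comprised 189 copies of large-subunit genes and 111 copies of small-subunit genes. The annotation calls 287 of them processed pseudogenes, 7 transcribed processed pseudogenes and 6 protein-coding genes. The families were of unequal size, with 24 copies each of Rpl31 and Rps12 and 15 of Rpl21, while 19 parents had 1 copy. Single-exon genes made up 289 of the 300, and 35 lay on chromosome X. No other annotated gene overlapped 207 of them, and 21 lay within a protein-coding gene on the same strand. The annotated length ranged between 151 and 1758 bases with a median of 459.5 bases, and 87 copies were exactly as long as the reading frame of the parent with its stop codon.

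Aligned to a transcript of the parent, the 299 copies with an annotated parent had a median identity of 95.7% (quartiles 90.9% and 98.7%), and 168 had at least 95%. A stricter measure is the share of a copy's stretches of 31 bases (31-mers) that also occur in a transcript of the parent, since a read has to lie in such stretches to fit both without a mismatch. Its median was 35.1%. In 25 copies no 31-mer occurred in the parent, in 37 copies no 31-mer was unique among all annotated transcripts, and in 13 copies all 31-mers occurred in the parent. The longest open reading frame equalled that of the parent in 96 copies and was under 50% as long in 118.

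The 13 copies contained whole in the parent were Rpl10-ps1, Rpl10a-ps1, Rpl15-ps3, Rpl27-ps3, Rpl28-ps1, Rpl31-ps8, Rpl36a-ps2, Rpl38-ps2, Rps12-ps3, Rps13-ps2, Rps16-ps2, Rps23-ps1 and Rps6-ps4. In 10 of the 13 the annotated copy starts at the start codon and ends at the stop codon of the parent's frame. The annotation of Rps23-ps1 ends 7 bases before the end of that frame and that of Rps13-ps2 ends 3 bases before it, so neither holds the stop codon, and their longest closed frames had 15 and 8 codons. Rps12-ps3 is longer than the frame, with 494 bases.

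The stretches below are of the 3 copies with the highest mean TPM in the second quantification (Rps12-ps3, Rpl10-ps3 and Rps23-ps1) and 3 of the 4 highest in the first (Rpl31-ps8, Rps23-ps1 and Rpl36a-ps2). They are shown because, but for the end of Rpl10-ps3 given next, no letter sets them apart from the parent. Each line gives the first 90 bases of the reading frame, 5′ to 3′, from the GENCODE M21 transcripts on mm10, with the start codon in capitals. Rps12-ps3 lies at chr19:59322290-59322783 on the plus strand, within an intron of Pdzd8 on the other strand, and Rps12 on chromosome 10 at 23785183 to 23787275. Rpl10-ps3 lies at chr9:50344201-50344968 on the minus strand and overlaps no other gene, and Rpl10 lies on chromosome X at 74270812 to 74273135. The remaining lines are of Rps23-ps1 (chr3:37714740-37715164, plus strand, overlapping an exon of Gm5148 on the other strand), Rpl31-ps8 (chr15:90764279-90764656, minus strand, no overlap) and Rpl36a-ps2 (chr3:145879020-145879340, plus strand, in an intron of Ddah1 on the same strand). In these last 3 pairs, too, the 90 bases of the parent have the same letters.
Rps12-ps3: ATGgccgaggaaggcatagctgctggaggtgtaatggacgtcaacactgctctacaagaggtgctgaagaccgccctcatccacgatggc
Rps12: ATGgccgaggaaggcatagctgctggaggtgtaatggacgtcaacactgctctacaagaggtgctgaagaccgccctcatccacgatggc
Rpl10-ps3: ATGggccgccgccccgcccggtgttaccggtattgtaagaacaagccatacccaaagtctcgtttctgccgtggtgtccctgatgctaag
Rpl10: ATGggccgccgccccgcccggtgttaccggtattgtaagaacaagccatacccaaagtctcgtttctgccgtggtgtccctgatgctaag
Rps23-ps1: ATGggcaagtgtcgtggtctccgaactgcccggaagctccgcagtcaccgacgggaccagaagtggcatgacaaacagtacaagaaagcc
Rpl31-ps8: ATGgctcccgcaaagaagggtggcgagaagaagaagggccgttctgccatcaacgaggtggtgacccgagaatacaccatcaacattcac
Rpl36a-ps2: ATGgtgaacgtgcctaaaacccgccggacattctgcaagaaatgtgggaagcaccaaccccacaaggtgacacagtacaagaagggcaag

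Rpl10-ps3 is not among the 13 because its last 28 bases do not align to Rpl10. Its other 740 bases are identical to Rpl10, and 96.2% of its 31-mers occur there. The bases that do not align are all A, given here with the whole stretch in capitals because they are the only letters by which this copy can be told from its parent.
Rpl10-ps3, 3′ end at chr9:50344201-50344228: AAAAAAAAAAAAAAAAAAAAAAAAAAAA
Among the 299 aligned copies, 5 ended in a run of at least 10 A, the longest of 29 bases in Rpl10-ps3. The others were Rpl9-ps6 and Rps26-ps1 with 20 bases each and Rpl36-ps12 and Rps13-ps1 with 13 each.

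Copies that differ from the parent by few bases are shown for contrast. Substitutions are written as the base of the parent, the position counted from 1 at the 5′ end of the copy, and the base of the copy. Rpl19-ps11 (chr8:19492936-19493526, plus strand) differs from Rpl19 by G191A alone, and Rpl9-ps6 (chr19:32465865-32466578, minus strand) differs from Rpl9 by G293A over its 692 aligned bases. Rps10-ps2 (chr16:20822145-20822640, minus strand) carries T393C, T408C, C437G, A438G and G473A relative to Rps10. Capitals mark the differing bases.
Rpl19-ps11: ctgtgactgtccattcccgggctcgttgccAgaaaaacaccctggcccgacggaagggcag
Rpl19: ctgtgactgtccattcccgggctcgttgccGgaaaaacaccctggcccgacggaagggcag
Rpl9-ps6: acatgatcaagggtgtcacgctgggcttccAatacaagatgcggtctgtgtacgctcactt
Rpl9: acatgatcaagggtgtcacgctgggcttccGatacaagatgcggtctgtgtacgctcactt
Rps10-ps2: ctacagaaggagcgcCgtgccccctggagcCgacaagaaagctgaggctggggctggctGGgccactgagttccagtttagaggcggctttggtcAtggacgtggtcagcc
Rps10: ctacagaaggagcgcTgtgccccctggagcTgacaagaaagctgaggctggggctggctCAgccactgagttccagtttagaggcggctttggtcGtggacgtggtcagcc

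The counts on the copies lay on few of them. In the second quantification 118 of the 300 had 0 counts in every library and 48 had counts summing to at least 10. In the first 176 had 0 in every library and 53 reached that sum. Both quantifications gave 0 in every library to 109 copies. Rps12-ps3 and Rpl10-ps3 together held 71.8% ± 1.45 (SD, n = 4) of all counts on the copies in the second quantification. In the first quantification the 2 highest copies by counts, Rps23-ps1 and Rpl31-ps8, held 31.1% ± 2.27.

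Levels were set against 1 TPM with limma on log2(TPM + 0.1), one-sided in each direction, with the Benjamini-Hochberg adjustment over all genes tested. The TPM were as deposited, and their scale differs between the quantifications. Bringing protein-coding genes to the same total took factors of 7.15 to 11.3 in the second and 2.73 to 3.95 in the first. A level of 1 TPM was therefore a stricter limit in the second, and TPM levels are not alike between quantifications. In the second quantification 8 of the 48 copies tested lay above 1 TPM, 39 lay below and 1 had neither call, beside 34.1% above and 56.9% below among the 21508 genes tested. In the first quantification 24 of 53 lay above, 17 below and 12 had neither call, beside 58.2% above and 35.1% below among 16262 genes. All 8 copies above in the second quantification were also above in the first, and 16 were above in the first only. Of the 79 genes of cytosolic ribosomal proteins, 78 lay above 1 TPM in the second quantification, with a median of 64.0 TPM, and all 79 in the first, with a median of 193 TPM. Without replicate 2, 20 copies in the second quantification and 11 in the first lay below, and the share over all genes was not computed for this setting. The ribosomal protein gene not called above in the second was Rpl12, at 1.54 ± 0.536 TPM (SD, n = 4). With TPM rescaled to the total of protein-coding genes it stood at 13.7 ± 3.59 there.

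The share of 31-mers in the parent ordered the levels differently in the quantifications, in which 1 TPM as deposited is not the same limit. In the second, the 8 copies above 1 TPM were Rps12-ps3, Rpl10-ps3, Rps23-ps1, Rpl28-ps1, Rpl31-ps8, Rps16-ps2, Rpl27-ps3 and Rpl36a-ps2, and the lowest share among them was 96.2%. No copy with a mismatch to its parent lay above. The highest mean TPM was 0.227 among copies sharing 75% to under 90% of 31-mers and 0.166 at 50% to under 75%. It was 0.358 at 25% to under 50% and 0.133 under 25%, so it did not fall steadily with the share. In the first, 12 of the 24 copies above 1 TPM carried between 1 and 6 mismatches, and the lowest share was 71.8%, in Rps24-ps3. Of the 11 copies with 1 difference over their whole length, 0 lay above 1 TPM in the second quantification, where their mean TPM ranged between 0.0041 and 0.136, and 3 in the first, where it ranged between 0 and 5.89. Spearman's rho between the share and mean TPM over the 299 copies was 0.50 in the second quantification and 0.61 in the first, as a description only, since both quantifications use these same transcript sequences and copies of 1 family share a parent.

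**Figure D1:**
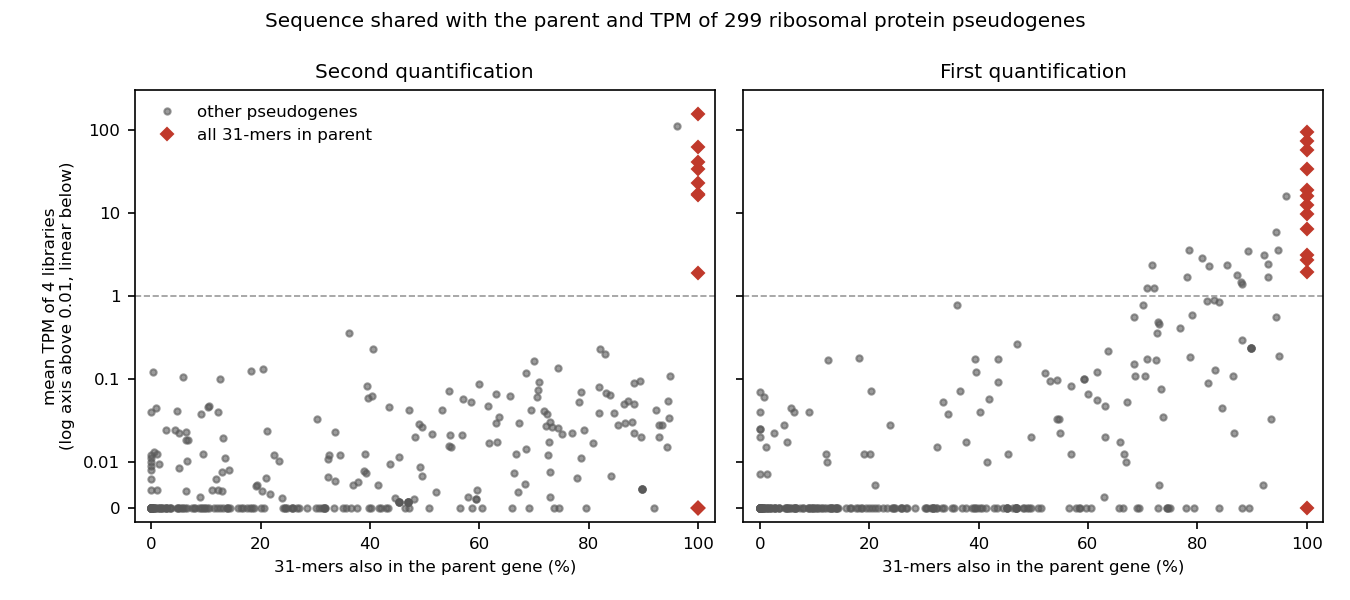
The plot shows, for each of 299 copies, the percentage of its 31-mers found in the parent (x axis) and its mean TPM over 4 libraries (y axis, logarithmic above 0.01) in the second quantification (left) and the first (right), with the level of 1 TPM dashed. In the second quantification every copy above the dashed line shares at least 96.2% of its 31-mers with the parent, while in the first the copies above it share 70.9% or more.

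Being contained whole in the parent did not fix the outcome. By mean counts, 8 of the 13 such copies held reads in the second quantification, between 178 for Rpl10a-ps1 and 7948 for Rps12-ps3, while Rpl10-ps1, Rpl15-ps3, Rpl38-ps2, Rps13-ps2 and Rps6-ps4 stood at 0 in every library. In the first quantification 12 of the 13 held reads, and Rpl10-ps1 alone stood at 0. Rpl10-ps1 and Rpl10-ps3 copy the same gene, and the 645 bases of Rpl10-ps1 are all found in Rpl10, yet Rpl10-ps1 had 0 counts in every library of both quantifications and Rpl10-ps3 had reads in all of them.

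The difference between quantifications was tested within each library on log2(TPM + 0.1), with TPM rescaled so that protein-coding genes summed to the same total in each library and quantification, for genes with a mean of at least 1 over both (limma treat with a minimum log2 difference of 1). Of the 36 copies tested, 4 were higher in the second quantification, 7 were lower and 25 had no call, beside 2.84% higher and 0.818% lower among 13080 genes. The median log2 difference was -3.29 over the copies, or -2.99 with the 4 copies at 0 in the second quantification set at the limit of 3 counts, and 0.04 over all genes tested. Of these 36 copies, 23 reached a mean of 1 in the first quantification only and 13 in both, so a fall was built into the choice for most of them, and neither the counts nor the median can be read as support. Among 442 other processed pseudogenes tested, 11.3% were higher and 11.1% lower, beside 11.1% and 19.4% of the copies. Without replicate 2 and without replicate 4, 2 copies were called higher, beside 2.04% and 1.3% of all genes tested. Without replicates 3 and 4 in turn, 4 were called lower, beside 0.432% and 0.455%. Rps12-ps3, Rpl10-ps3, Rpl15-ps3 and Rps6-ps4 kept their calls without each replicate and under every other setting tried. With TPM as deposited the median of all genes lay at -1.42, and 3 copies were called higher and 15 lower, beside 1.17% higher and 4.45% lower among 9563 genes. The ribosomal protein genes had a median difference of -0.08, with 0 of 79 called higher and 4 lower. With no minimum difference 7 of them were higher and 41 lower, beside 24.2% higher and 14.1% lower among 13080 genes.

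**Figure D2:**
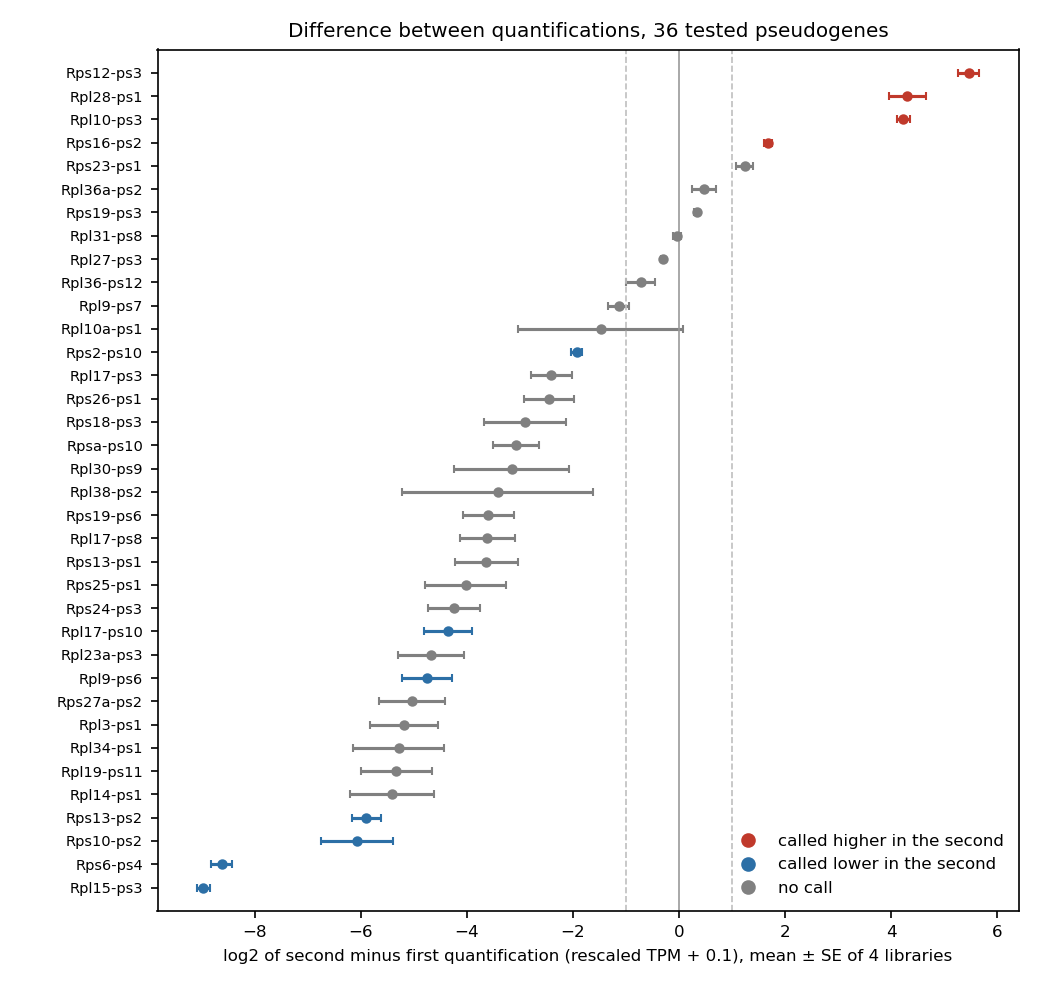
The plot shows the log2 difference of the second minus the first quantification (x axis, rescaled TPM + 0.1, mean and SE of 4 libraries) for the 36 copies tested, with dashed lines at the minimum difference of 1 in each direction. Rps12-ps3 stands highest at 5.47, and Rpl15-ps3 lowest at -8.97, a fitted value of a copy that had 0 counts in the second quantification.

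Rps12-ps3, a copy of the gene for a small-subunit protein, held most of the reads of its family in one quantification and few in the other. Its counts were 7098, 7796, 9254 and 7643 in replicates 1 to 4 of the second quantification, against 159, 160, 122 and 210 in the first. Rps12 itself had 277, 427, 390 and 415 counts in the second quantification, against 6914, 7871, 9229 and 7611 in the first. The groups do not overlap, and copy and parent change places. On the log2 scale Rps12-ps3 was higher by 5.47 ± 0.20 (SE; limma treat adjusted p = 0.0024) and Rps12 fell by 4.59 ± 0.08 (adjusted p = 0.000441) in the second quantification. The sum of Rps12 and its 24 copies changed little in counts, with a ratio of the second to the first quantification of 1.03 ± 0.00805 (SD, n = 4). Rps12-ps3 is 1 of the 6 copies that the annotation calls protein-coding.

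Rpl10-ps3, a copy of the gene for a large-subunit protein that joins the subunit late in its assembly, behaved alike. It had 10000, 12302, 12162 and 11448 counts in the second quantification, against 364, 650, 620 and 597 in the first. Rpl10 had 2233, 3159, 2895 and 2972 counts in the second, against 11175, 14184, 14052 and 13115 in the first. Both switched places without overlap. The log2 difference was 4.23 ± 0.12 for Rpl10-ps3 (limma treat adjusted p = 0.00126) and -2.45 ± 0.04 for Rpl10 (adjusted p = 0.000569), and the family sum had a ratio of 1.05 ± 0.0144. Rpl10-ps3, like Rps12-ps3, is annotated as protein-coding, and its frame of 214 codons is that of Rpl10.

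Rpl28-ps1 and Rps16-ps2 were also higher in the second quantification, while their parents kept most of the reads. Rpl28-ps1, a copy of a large-subunit gene at chr1:128038569-128038982 in an intron of Zranb3 on the other strand, had 1211, 1578, 1792 and 1747 counts in the second quantification, against 107, 53, 43.2 and 94.0 in the first. Its log2 difference was 4.31 ± 0.35 (limma treat adjusted p = 0.0196). Rps16-ps2, a copy of a small-subunit gene at chr5:129128077-129128517 in an intron of Adgrd1 on the other strand, had 792, 1013, 1096 and 964 counts in the second quantification, against 217, 285, 353 and 233 in the first, a log2 difference of 1.68 ± 0.08 (adjusted p = 0.0206). For both copies every library of the second quantification lay above every library of the first. The call of Rpl28-ps1 was lost without replicate 2, 3 or 4, and that of Rps16-ps2 without replicate 1, 2 or 4 and with TPM as deposited. With no filter on low values neither was called (limma treat adjusted p = 0.165 for Rpl28-ps1 and 0.164 for Rps16-ps2). Rpl28 averaged 3711 ± 410 counts in the second quantification and 4873 ± 769 in the first, and Rps16 2948 ± 213 in the second and 3425 ± 297 in the first (SD, n = 4 each), with no call for either.

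Rps23-ps1, Rpl36a-ps2 and Rpl31-ps8 were high in both quantifications. Rps23-ps1, copied from the gene for a protein at the decoding site of the small subunit, had 2019, 2579, 2804 and 2611 counts in the second quantification, against 716, 1053, 1411 and 708 in the first. These groups do not overlap, but the log2 difference of 1.24 ± 0.17 did not pass limma treat (adjusted p = 1.00). Rpl36a-ps2 had 329, 358, 434 and 403 counts in the second quantification, against 222, 193, 352 and 144 in the first, where replicate 3 overlaps the values of the second. Within each library the count of Rpl36a-ps2 was higher in the second, but its log2 difference of 0.47 was not called. Rpl31-ps8 had 804, 1109, 1086 and 1351 counts in the second, against 725, 956, 1111 and 1041 in the first, and these groups overlap. Its TPM of 93.0 ± 6.96 was the highest of all copies in the first quantification, against 104 ± 25.3 TPM for Rpl31 in the same libraries. In counts Rpl31 lay well above the copy there, with 3426, 4132, 3510 and 4144. TPM takes account of transcript length, and counts do not.

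A second set of copies held reads in the first quantification and none, or almost none, in the second. Rpl15-ps3 (chr9:22185607-22186221) had 0 counts in each library of the second quantification, against 330, 301, 598 and 374 in the first. Rps6-ps4 (chr2:75191073-75191822), copied from the gene for the small-subunit protein that is phosphorylated downstream of mTOR, had 0 in each library of the second, against 228, 393, 719 and 436 in the first. Set against 3 counts in each library of the second quantification, Rpl15-ps3 was at least 123-fold lower there and Rps6-ps4 at least 89.8-fold lower, by CPM. Rps13-ps2 had 0 in each library of the second, against 11.3, 25.2, 43.0 and 41.8 in the first, at least 4.46-fold lower. All 3 were called lower (limma treat adjusted p = 0.000265, 0.000674 and 0.00433), on a scale where the size depends on the pseudocount of 0.1. They passed the filter on low values through the first quantification alone, so a lower value in the second was fixed by that choice. With no filter the call of Rps13-ps2 was lost (adjusted p = 0.0564). Rps13-ps2 was also not among the calls with TPM as deposited or with CPM, with or without TMM factors. Their parents had counts of 8313 ± 628 for Rpl15, 8674 ± 1131 for Rps6 and 4574 ± 360 for Rps13, in the second quantification, against 7740 ± 596 for Rpl15, 7917 ± 989 for Rps6 and 4328 ± 387 for Rps13 in the first (SD, n = 4). On the rescaled TPM scale their log2 differences were -0.07 for Rpl15, -0.03 for Rps6 and -0.07 for Rps13, with no call for any of them.

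The other copies called lower carry mismatches or ends that do not align. Rps10-ps2, with the 5 substitutions shown above, had 0, 2.17, 0 and 0 counts in the second quantification, against 97.5, 41.6, 38.9 and 52.4 in the first (log2 difference -6.08 ± 0.68, limma treat adjusted p = 0.0388). Rpl9-ps6 had 4.23, 4.56, 0 and 5.30 counts in the second, against 101, 82.5, 93.2 and 101 in the first (-4.76 ± 0.48, adjusted p = 0.0316). Rps2-ps10, with 6 mismatches to Rps2, had 39.7, 23.5, 23.2 and 35.0 counts in the second, against 117, 93.5, 102 and 110 in the first (-1.93 ± 0.11, adjusted p = 0.0217). The seventh, Rpl17-ps10, had 0, 1.65, 0 and 0 counts in the second quantification, against 13.2, 14.2, 24.2 and 21.2 in the first. In all 4 the raw counts of the quantifications do not overlap, though the share of all genes without overlap is not given here. With each replicate left out in turn, Rps10-ps2 and Rpl17-ps10 kept the call only without replicate 2, Rpl9-ps6 only without replicate 3 and Rps2-ps10 only without replicate 1. Rps10-ps2, Rpl9-ps6 and Rpl17-ps10 also passed the filter through the first quantification alone. For them a lower value in the second and the lack of overlap were favoured by that choice. Rps2-ps10 reached a mean of 1 in both. With no filter none of these 4 was called (limma treat adjusted p = 0.271 for Rps10-ps2, 0.234 for Rpl9-ps6 and 0.171 for Rps2-ps10). With a pseudocount of 1 neither Rps10-ps2 (limma treat adjusted p = 0.0730) nor Rpl17-ps10 was called. With CPM, with or without TMM factors, only 16 copies were tested, and Rps10-ps2 was not 1 of them. Rpl17-ps10 was among the calls neither with CPM nor with TPM as deposited, where 22 copies were tested. Rpl19-ps11, with the single substitution shown above, had 0, 5.88, 6.80 and 5.56 counts in the second quantification, against 113, 125, 166 and 154 in the first, and missed the threshold (log2 difference -5.33 ± 0.67, limma treat adjusted p = 0.0557). It was called lower with CPM, with and without TMM factors, with a pseudocount of 1, posterior mean TPM, TPM as deposited or no minimum difference, and without replicate 1 (adjusted p between 1.62e-69 and 0.0219).

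**Figure D3:**
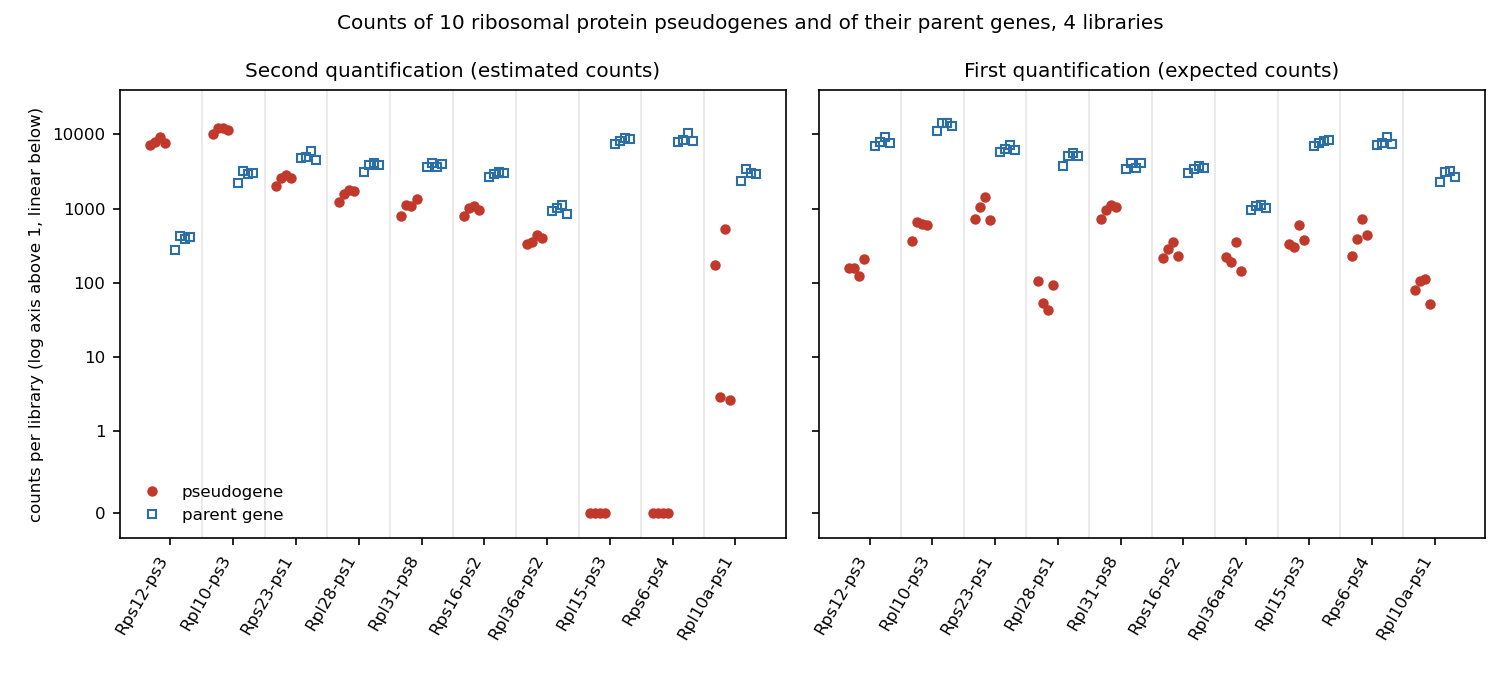
The plot shows counts per library (y axis, logarithmic above 1) of 10 copies (filled circles) and their parents (open squares) in the second quantification (left) and the first (right), with replicates 1 to 4 from left to right. Rps12-ps3 and Rpl10-ps3 lie above their parents in the second quantification and below them in the first, and Rpl15-ps3 and Rps6-ps4 lie at 0 in the second.

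Some copies are identical to one another, and 16 copies had a transcript identical to that of a gene other than the parent. Rpl27-ps3 is identical to Gm11518, a processed pseudogene of Rpl27 that the naming rule leaves out. Both genes were given the same values, 550, 607, 822 and 580 counts in the second quantification, against 579, 678, 908 and 617 in the first, so that the reads of the pair were divided evenly in each library. Counting 1 of the pair only, the copies of Rpl27 held 24.4% ± 4.07 of the family in the second quantification and 27.9% ± 4.97 in the first. The groups Rpl35a-ps2, Rpl35a-ps3, Rpl35a-ps4 and Rpl35a-ps6, and Rps12-ps11 to Rps12-ps15, are further sets with identical transcripts, and a level of any 1 of them has no meaning apart from its set.

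Rpl10a-ps1, contained whole in its parent, varied widely between libraries in the second quantification. Its counts were 174, 2.88, 532 and 2.61 in the second quantification, against 80.2, 104, 113 and 51.8 in the first. In the second quantification replicates 1 and 3 were high and replicates 2 and 4 near 0, while the 4 values of the first lay close together. Its parent Rpl10a, which helps form the stalk on the side of the large subunit where tRNA leaves, had 2372, 3390, 2983 and 2897 counts in the second quantification, against 2309, 3155, 3244 and 2663 in the first.

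At the low end, 2 copies entered the highest 12 of the second quantification on few reads. Rps19-ps3, which shares 36.1% of its 31-mers with Rps19, had 11.3, 14.3, 20.2 and 13.2 counts in the second quantification, against 8, 9, 14 and 10 in the first, and its posterior SD in the first was 0 in every library. Rpl35a-ps7 had 5.03, 3.03, 4.02 and 11.1 counts in the second, against 0 in every library of the first. Both lay below 1 TPM in the second quantification.

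By family, the copies held 7.10% ± 0.106 of the counts of copies and parents together in the second quantification and 1.65% ± 0.127 in the first (SD, n = 4). Rps12 had the highest share, with 96.2%, 94.8%, 96.0% and 94.9% of its family's counts on copies in the second quantification, against 2.25%, 2.07%, 1.32% and 2.73% in the first. Rpl10 followed with 80.4% ± 1.10 in the second and 4.07% ± 0.596 in the first. The shares were 33.1% ± 3.14 and 13.0% ± 2.80 for Rps23, 29.9% ± 1.50 and 1.59% ± 0.894 for Rpl28, and 24.6% ± 1.34 and 7.30% ± 1.07 for Rps16 in the second and the first quantification. For Rpl36a they were 28.3% ± 2.86 in the second and 18.2% ± 4.99 in the first, and for Rpl31 22.2% ± 2.89 in the second and 20.1% ± 2.81 in the first, the last pair within the spread of the replicates. Every other family held under 1% of its counts on copies in the second quantification, apart from Rpl27, given above, and Rpl10a with 5.54% ± 7.14. Across 61 families the ratio of family counts, second over first quantification, had a median of 1.05 (quartiles 1.03 and 1.06), beside ratios of 1.18, 1.23, 1.29 and 1.18 for the counts on all annotated genes in replicates 1 to 4. The lowest ratios were 0.0397 for Rpl12 and 0.235 for Rpl5, which have copies outside the naming rule, given below. The highest was 1.34 for Rpl35a.

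**Figure D4:**
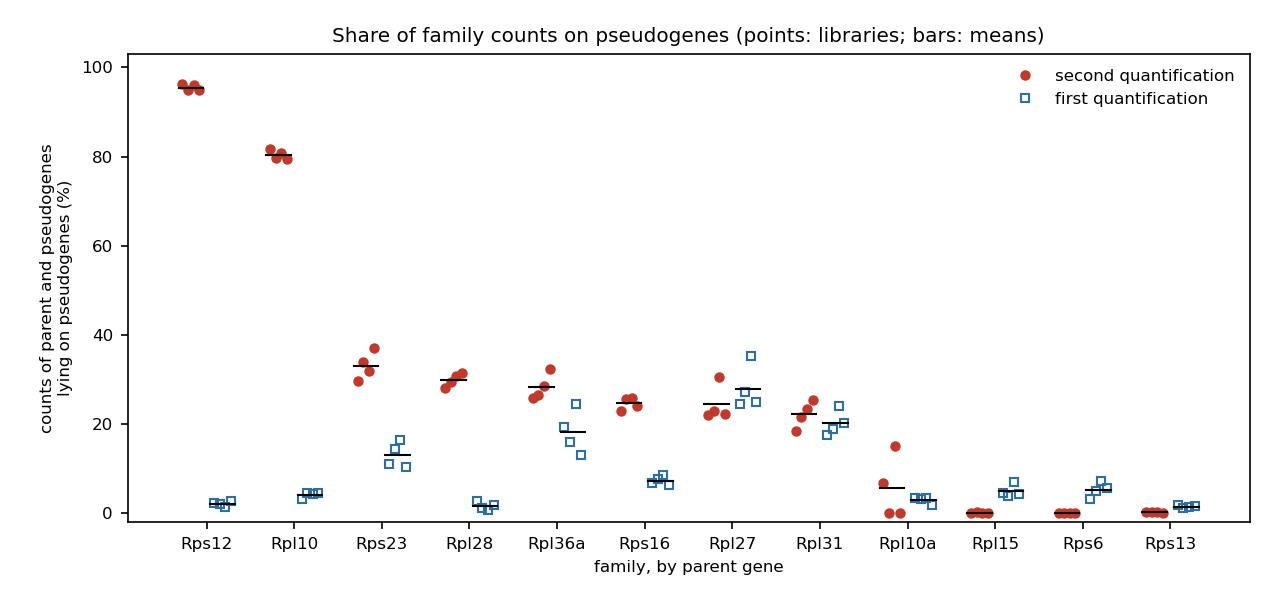
The plot shows the percentage of each family's counts, parent and copies together, that lay on copies (y axis) for 12 families, with 1 point per library and a bar at the mean, in the second quantification (filled circles) and the first (open squares). Rps12 and Rpl10 stand at 95.5% and 80.4% in the second quantification and at 2.09% and 4.07% in the first.

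The first quantification also gives the uncertainty of each count in a single library. Among the 18 copies with a mean expected count of at least 50, the posterior SD was between 4.54% and 51.1% of the posterior mean, with a median of 8.66%, and among their parents between 0.0647% and 1.94%. In absolute counts, the SD of a copy and that of its parent were alike: in 14 of the 18 pairs they differed by at most 10%. Rpl10-ps3 had posterior SDs of 31.1, 42.4, 40.7 and 35.7 counts in replicates 1 to 4, and Rpl10 had 30.9, 42.3, 40.3 and 35.5. Rpl31-ps8 had the lowest ratio, with Rps23-ps1 (4.79%) and Rpl10-ps3 (6.74%) next. Rpl27-ps3 had the highest, with SDs of 275, 415, 451 and 328 counts against 32.9, 34.1, 35.2 and 36.9 for Rpl27, followed by Rpl10a-ps1 (24.6%) and Rpl15-ps3 (16.9%). Of the 5351 genes with posterior mean counts in the range of these copies, 63.5% had a posterior SD of 0. Rps12-ps3 had 7948 ± 921 counts in the second quantification (SD, n = 4), against a posterior mean of 160 with a posterior SD of 16.2 counts in the first, so the posterior SD of the first did not span the difference between the quantifications.

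**Figure D5:**
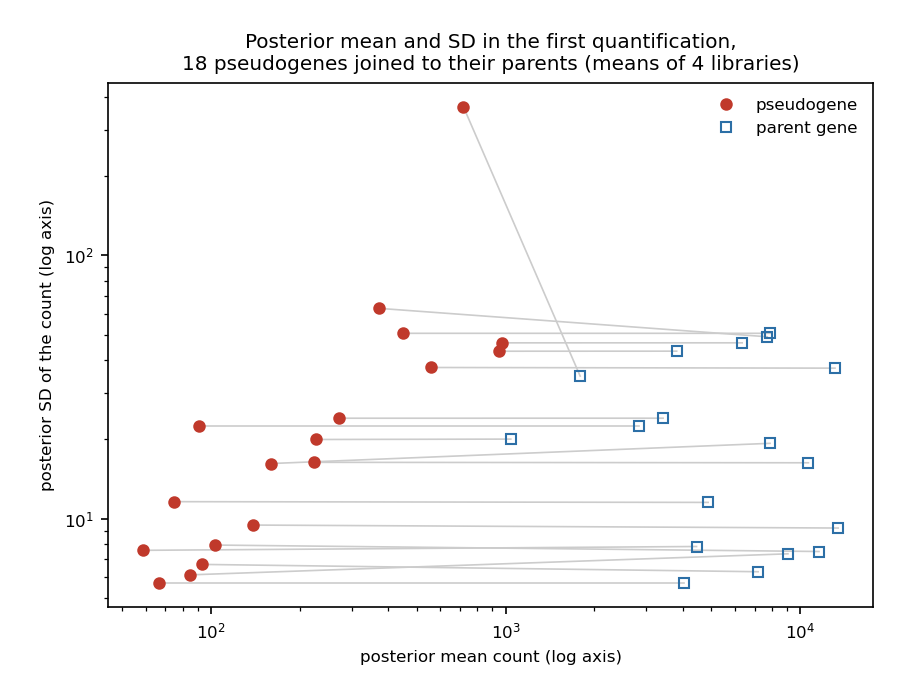
The plot shows the posterior mean (x axis) and posterior SD (y axis) of the count in the first quantification, both logarithmic and averaged over 4 libraries, for 18 copies (filled circles) joined to their parents (open squares). Most lines run level, as copy and parent have nearly the same SD, and Rpl27-ps3 stands apart at 367 counts.

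The naming rule leaves copies out. Counting genes with at least 50% of their 31-mers in 1 of the 79 ribosomal protein genes, 208 further genes outside the rule, small nucleolar RNAs and microRNAs excepted, together held 24848 counts per library on average in the second quantification and 16371 in the first, against 27090 and 6173 for the 300 named copies. The following were chosen after their values had been seen. Gm10275, a transcribed pseudogene at chr10:29698746-29699380 with 96.0% of its 31-mers in Rpl12, had 5614, 6003, 6416 and 4966 counts in the second quantification, against 554, 564, 518 and 341 in the first. Rpl12, whose protein sits at the base of the ribosomal stalk, had 176, 220, 253 and 145 counts in the second, against 4761, 5208, 5633 and 4209 in the first. On the log2 scale Gm10275 was higher in the second quantification by 3.41 ± 0.10 (limma treat adjusted p = 0.00184) and Rpl12 fell by 4.53 ± 0.09 (adjusted p = 0.000552). Gm15500, with 99.9% of its 31-mers in Rpl5, had 6936 ± 740 counts in the second quantification and 4832 ± 843 in the first, and Rpl5, whose protein carries a small ribosomal RNA into the large subunit, had 472 ± 27.5 counts in the second and 2071 ± 396 in the first (log2 difference -1.74 ± 0.10, adjusted p = 0.0370). Rpl12, Rpl5, Rps12 and Rpl10 were the 4 ribosomal protein genes called lower, and the call of Rpl5 was lost without each of the 4 replicates in turn (limma treat adjusted p between 0.0804 and 0.154). The opposite case was Gm10076, which shares 82.2% of its 31-mers with Rpl41 and had 17.3 ± 6.21 counts in the second quantification and 3406 ± 526 in the first.

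The copies above 1 TPM were also set beside the others by reading frame and position. Of the 96 copies whose longest frame equals that of the parent, 7 lay above 1 TPM in the second quantification and 17 in the first, and of the other 204 copies 1 and 7. The 1 copy above in the second quantification without that frame was Rps23-ps1, whose annotation ends 7 bases before the end of the parent's frame. A young copy keeps both its frame and its 31-mers, and the parts of frame and shared sequence in the levels were not tested. Of the 21 copies within a protein-coding gene on the same strand, 1 lay above in the second quantification and 3 in the first. Among 9943 other processed pseudogenes, the same fits called 67 of 1041 above 1 TPM in the second quantification and 129 of 761 in the first.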

How the data were processed

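Ribosomal-RNA-depleted total RNA of 4 libraries of 1 group was analysed as deposited. The gene tables hold expected counts, TPM and the posterior mean and SD of the count from a transcriptome alignment, and the transcript tables hold estimated counts and TPM made directly from the reads, per the file headers and the deposited notes, on mm10 with GENCODE M21. Which programs made them is not given in the sources used here. Transcript values were summed per gene (86 of 55536 genes had no row in the second quantification), and quantifications were joined by gene identifier. Levels of genes with counts summing to at least 10 were fitted with limma 3.58.1 (intercept only, variance trend, log2(TPM + 0.1)), and differences with limma treat. TMM factors came from edgeR 4.0.16. A Benjamini-Hochberg adjusted p below 0.05 made a call. The submitters' counting and any strand setting are not known, so reads of overlapping genes on opposite strands cannot be told apart. Sequences were read from GENCODE M21 transcripts in Python 3.11.15 and aligned with Biopython 1.88 (local, match 1, mismatch -1, gap opening -3, extension -1). The longest open frame ran from a start to a stop codon.

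The members, gene lists and tests were chosen with earlier results of these data known. Genes named are the 12 copies with the highest mean TPM in each quantification, up to 5 called in each direction, by size of difference, the 3 with the highest and lowest ratio of posterior SD to posterior mean among copies with a mean expected count of at least 50, and their parents. Others are named where counted lists required it, chosen after their values had been seen. The fits were tested on simulated data with fold differences between quantifications of 4, 8, 0.25 and 0.125. Of 50 genes simulated at each, 94% to 100% were called, and 0 of 11538 unchanged genes. Smaller differences were not simulated, nor was the division of reads between identical transcripts.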

Additional observations from a re-analysis of the deposited data

Results flagged for a closer look

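Of 34 sets of 4 values examined for a library far from the others, 1 stood out, where chance gives about 1 in 20. Rps10-ps2 had 0.0442 TPM in replicate 2 of the second quantification and 0 in the other 3 libraries, which rests on 2.17 estimated counts.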

How the results depend on the processing

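The copies above 1 TPM stayed within 1.5 times under every setting, with 8 in the second quantification and 24 to 25 in the first when each replicate was left out. Those below moved: they numbered 291 in the second quantification and 263 in the first with no filter on low counts and 5 and 2 with counts summing to at least 40, as the filter sets how many low copies are tested. They numbered 13 and 4 with TPM rescaled to protein-coding genes, and 20 to 29 and 11 to 17 without 1 replicate, in the second and the first. The share over all genes was not computed for these levels under other settings. Copies higher in the second quantification numbered 2, and lower 2, with no filter (0.252% and 0.0595% of all genes). Those lower numbered 15 with TPM as deposited (4.45% of all genes tested), 12 with a pseudocount of 1 (0.696%), 22 with posterior mean TPM (11.1%) and 23 with no minimum difference (14.1%). Of the 7 lower in the main setting, these held 5, 5, 7 and 7 in that order. CPM, with or without TMM factors, kept 4 of the 7, with 16 copies tested beside 36 in the main setting. Rps10-ps2 and Rps13-ps2 were not tested with CPM, and Rps13-ps2 was not tested with TPM as deposited, where 22 copies were. Without 1 replicate 2 to 3 were higher (1.3% to 3.12% of all genes tested) and 4 to 6 lower (0.432% to 0.522%). Ribosomal protein genes called lower numbered 14 with TPM as deposited and 41 with no minimum difference, which also called 7 higher (24.2% of all genes). The cause of the other moves was not tested. By TPM in place of counts, the share on copies was 10.1% in the second quantification and 3.11% in the first. No paired analysis was possible because the 1 group has no other group to pair with, and the differences between quantifications were themselves taken within each library. Counts summed to under 10, and no level was tested, for 252 copies in the second quantification and 247 in the first.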
